A study of Mus musculus with 4 samples.

Results

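The genes described here are 5 of the 32285 in the gene table, taken by their symbols: the CC chemokine ligands Ccl2, Ccl7, Ccl8 and Ccl12 and the receptor Ccr2. All 5 symbols were found, each for 1 gene, and all 5 had UMIs in every library. CC chemokines are small secreted proteins that carry a pair of adjacent cysteines and draw leukocytes along a gradient through receptors coupled to G proteins. Ccr2 encodes the receptor by which classical monocytes leave the bone marrow and enter inflamed tissue. Of its ligands, CCL2 (MCP-1) is the best known, CCL7 (MCP-3) also acts on other CC receptors, and CCL12 (MCP-5) is a mouse ligand. Mouse CCL8 is known above all as an agonist of CCR8, a receptor of T cells that enter skin.

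Transcripts of single cells were counted with the 10x Genomics 3′ chemistry in 4 libraries of mouse skin, 1 for each condition. Each library pooled the neck and ear skin of 3 female C57BL/6J mice aged 6 to 8 weeks, so that mice and sites within a library cannot be told apart and no difference between libraries has a replicate check. In both oxazolone libraries, mice had been sensitised with 3% oxazolone, a contact hapten, in acetone and mineral oil on back and ear skin, and were challenged with 1.0% oxazolone every other day from 7 days later, each time in 100 µL, with skin taken at day 10 or at day 16. MC903 (calcipotriol, a vitamin D analog) was given as 1 nmol in 100 µL of ethanol to ear and neck every day, with skin taken after 9 days. The mice of the fourth library were untreated. Without a library from vehicle-treated mice, vehicle and agent cannot be told apart. The labels do not say from which day oxazolone day 10 and day 16 are counted, nor how many challenges preceded each harvest.

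The libraries held 7694 cells at oxazolone day 10, 7371 at oxazolone day 16, 3703 with MC903 and 7221 in untreated skin after filtering, with medians of 11114, 8807, 14367 and 10133 UMIs (unique transcripts) per cell in the same order. Pairs of libraries shared between 5 and 16 cell barcodes, at most 0.311% of the smaller library. Macrophage- or monocyte-like cells were named from 6 macrophage and 6 monocyte markers. All of these had UMIs in the class in every library, but so did the 6 macrophage markers in fibroblast-like cells. The macrophage- or monocyte-like class made up 24.9% of cells at oxazolone day 10, 20% at oxazolone day 16, 4.78% with MC903 and 1.70% in untreated skin. Fibroblast-like cells made up 9.88%, 6.17%, 43.9% and 29.9% in the same order, and neutrophil-like cells 23.4%, 57.1%, 8.34% and 0.346%. Per the file headers, counts of the oxazolone day 10 and untreated libraries came from Cell Ranger 7.2.0 and those of the oxazolone day 16 and MC903 libraries from 8.0.0. Software version and treatment can therefore not be told apart in the ratios of oxazolone day 16 or MC903 over untreated skin and of oxazolone day 16 over day 10, while oxazolone day 10 over untreated skin and MC903 over oxazolone day 16 lie within 1 version. The day on which each library was made is not given in the sources used here.

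The ligand genes lie side by side on mouse chromosome 11. In GENCODE vM21 (GRCm38), Ccl2 spans chr11:82035571-82037453, Ccl7 chr11:82045712-82047525, Ccl12 chr11:82101845-82103400 and Ccl8 chr11:82115185-82116799, all on the plus strand and each with 3 exons. This stretch of 81.2 kb holds 5 genes, of which the other is Ccl11, the eotaxin gene. Ccr2 lies on the plus strand of another chromosome, at chr9:124101950-124113557. The coding sequences of the 4 ligands were 64.6% to 70.8% identical in pairs, and the longest stretch that any 2 of their transcripts shared was 23 bases, between Ccl2 and Ccl7. An antisense gene, Gm17268, overlaps Ccl2 and had 1140 UMIs at oxazolone day 10, 2787 at oxazolone day 16, 1693 with MC903 and 839 in untreated skin. Whether the counting used strand is not given in the sources used here, so that UMIs of the 2 genes may be mixed. The adjacent cysteine codons that give the family its name are shown in capitals in 30 coding bases of each ligand, written 5′ to 3′ from the GENCODE transcripts, to show how far the genes differ around the shared feature.
Ccl2: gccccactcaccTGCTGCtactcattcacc
Ccl7: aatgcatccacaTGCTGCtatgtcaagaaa
Ccl8: gctccagtcaccTGCTGCtttcatgtacta
Ccl12: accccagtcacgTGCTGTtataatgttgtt
The cysteines are codons 34 and 35 of Ccl2, 33 and 34 of Ccl7, 32 and 33 of Ccl8 and 33 and 34 of Ccl12. Ccl12 alone used TGT for the second of them.

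Promoters of Ccl8 and Ccl12 were found in the RefSeq table (GRCm38.p6), and they are shown because these neighbouring genes differed by cell class, with Ccl8 carried by fibroblast-like cells and Ccl12 not. Each runs from 250 bases before to 50 after the gene's start on the plus strand, at chr11:82114935-82115234 for Ccl8 and chr11:82101595-82101894 for Ccl12, and capitals mark the letters TATAAAA.
Ccl8: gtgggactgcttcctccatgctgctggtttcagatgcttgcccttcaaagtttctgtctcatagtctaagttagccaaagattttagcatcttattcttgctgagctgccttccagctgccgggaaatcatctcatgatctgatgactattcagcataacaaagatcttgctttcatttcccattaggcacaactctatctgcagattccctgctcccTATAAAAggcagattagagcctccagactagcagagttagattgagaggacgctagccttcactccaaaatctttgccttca
Ccl12: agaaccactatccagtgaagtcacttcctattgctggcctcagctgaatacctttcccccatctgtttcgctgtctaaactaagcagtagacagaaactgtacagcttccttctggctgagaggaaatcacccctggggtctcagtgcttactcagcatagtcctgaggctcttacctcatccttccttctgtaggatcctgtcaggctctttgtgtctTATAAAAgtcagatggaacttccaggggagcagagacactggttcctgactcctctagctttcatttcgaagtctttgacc
Both held TATAAAA, at -32 to -26 from the start of Ccl8 and at -31 to -25 from that of Ccl12, as did 5.48% of the 32851 promoters of the table on either strand. TGANTCA, the AP-1 motif (in 7.81% of all promoters), TTCNNNGAA, the STAT motif (8.30%), GGAAANTCC, an NF-kB motif (1.25%), and TTCNNTTTC, part of the interferon response element (8.56%), were not found in these windows on either strand. The window of Ccr2, at chr9:124101933-124102232, held TTCNNTTTC at -86 to -78 from the start in that table. This start and the motif lie inside the GENCODE span of Ccr2, which begins at chr9:124101950. Ccl2 and Ccl7 are named only.

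Over all cells, the 4 ligands were higher at oxazolone day 16 than in any other library, while Ccr2 was highest at oxazolone day 10. Levels are given as CPM, the UMIs of a gene per 1000000 UMIs of the cells named. Ccl2 had 39.8 CPM (95% Poisson interval 38.6 to 41.0) at oxazolone day 10, 910 (904 to 916) at oxazolone day 16, 91.7 (89.4 to 94.0) with MC903 and 26.6 (25.5 to 27.7) in untreated skin. These intervals, and all that follow, cover counting error only and not the difference between mice. Ccl7 followed with 24.4 CPM at oxazolone day 10, 688 at oxazolone day 16, 88.4 with MC903 and 28.5 in untreated skin. Ccl8 had 428 CPM at oxazolone day 10, 1016 at oxazolone day 16, 85.1 with MC903 and 30.7 in untreated skin. Ccl12 had 12.8 CPM at oxazolone day 10, 164 at oxazolone day 16, 10.3 with MC903 and 0.618 (51 UMIs) in untreated skin. Ccr2 had 166 CPM at oxazolone day 10, 119 at oxazolone day 16, 25 with MC903 and 34.5 in untreated skin. The intervals of Ccl7 were 23.4 to 25.3 CPM at oxazolone day 10 and 27.3 to 29.6 CPM in untreated skin. How often intervals lay apart over all genes was not counted.

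As log2 ratios over untreated skin, Ccl2 stood at 0.58 at oxazolone day 10, 5.10 at oxazolone day 16 and 1.79 with MC903. Ccl7 stood at -0.22, 4.60 and 1.64 in the same order, Ccl8 at 3.8, 5.05 and 1.47, Ccl12 at 4.38, 8.05 and 4.06, and Ccr2 at 2.26, 1.79 and -0.46. Counted at 2-fold, 2 of 4 ligands were higher at oxazolone day 10 (Ccl8 and Ccl12), where 12% of all genes measured were, 4 of 4 at oxazolone day 16, where 15% were, and 4 of 4 with MC903, where 12.4% were. The median gene stood at -0.03, -0.73 and -0.04 in these 3 ratios, and without neutrophil-like cells the oxazolone day 16 ratio of Ccl2 was 5.66. Oxazolone day 16 over day 10 gave 4.51 for Ccl2, 4.82 for Ccl7, 3.67 for Ccl12 and 1.25 for Ccl8, so that 4 of 4 ligands were at least 2-fold higher (9.3% of genes), and Ccr2 had -0.47. MC903 over oxazolone day 16 gave ratios between -2.25 for Ccr2 and -3.99 for Ccl12, and all 5 genes were at least 2-fold lower there (11.8% of genes). The mix of ligands differed too. Of the UMIs of the 4 ligands, Ccl8 made up 84.7% at oxazolone day 10, against 36.6% at oxazolone day 16, 30.9% with MC903 and 35.6% in untreated skin. A UMI stands for 1 tagged transcript end and was not divided by gene length.

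**Figure D1:**
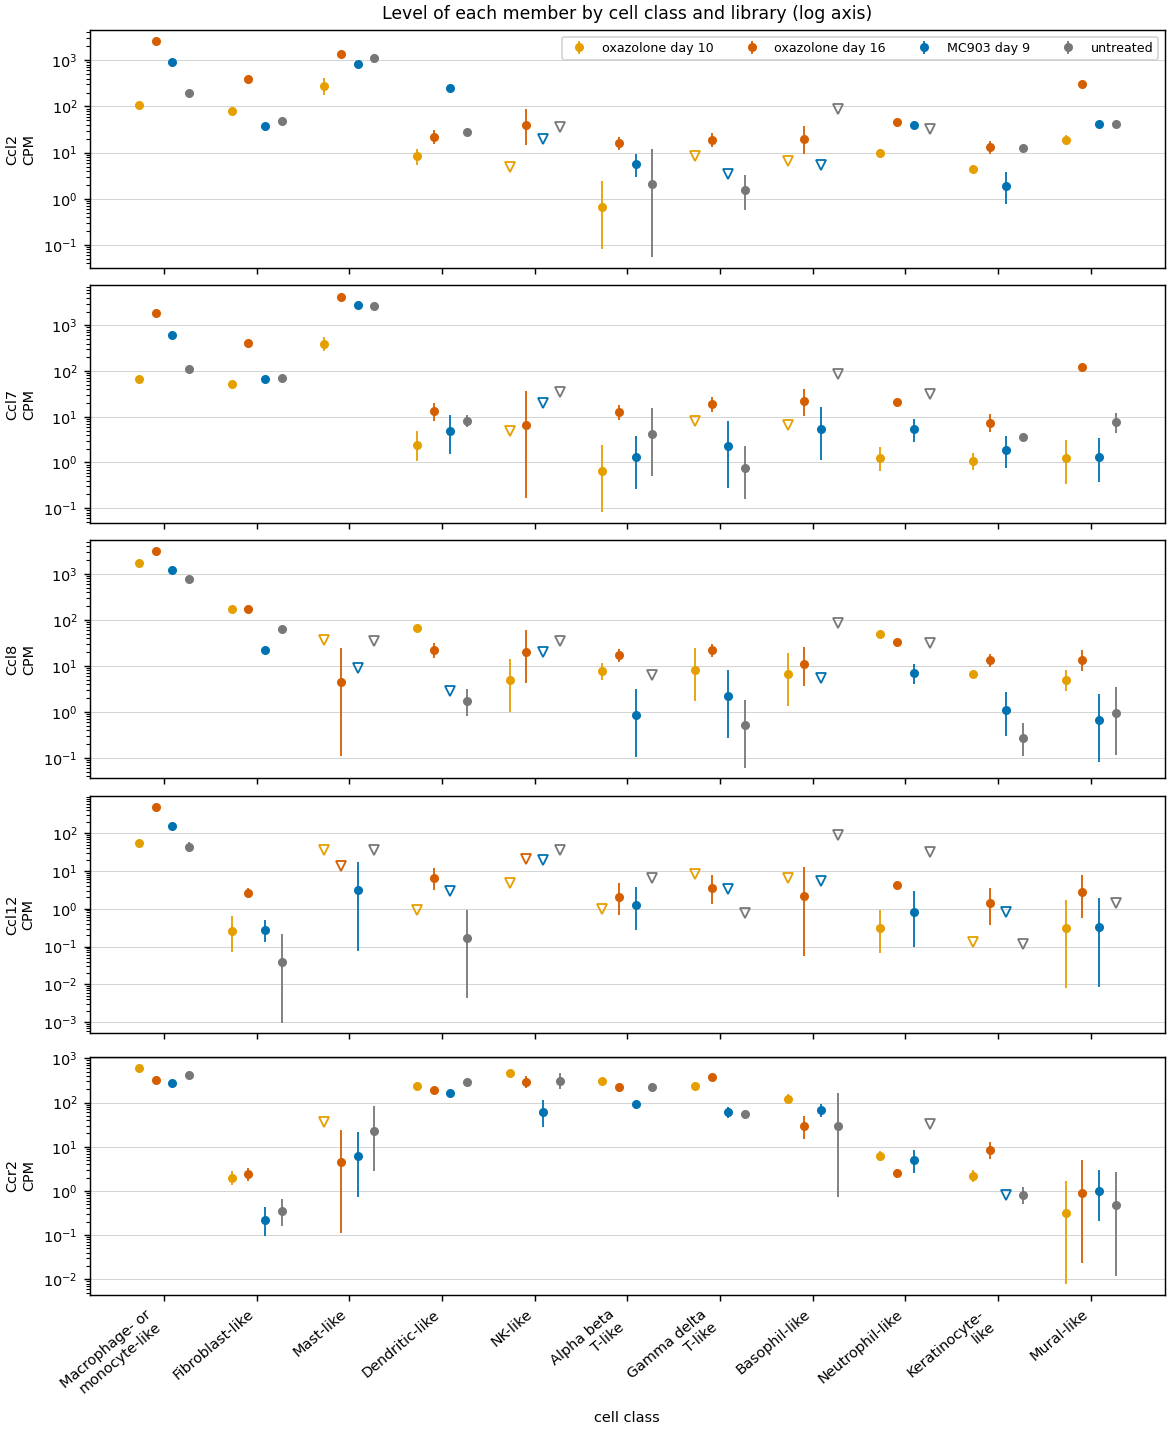
CPM of each member (log axis) in cell classes with at least 10 cells, with 1 point for each library and 95% Poisson intervals. Open triangles mark a count of 0, drawn at the level of 3 UMIs. Ccl2 and Ccl7 are high in macrophage- or monocyte-like, fibroblast-like and mast-like cells, Ccl8 in the first 2 of these and Ccl12 in macrophage- or monocyte-like cells, and Ccr2 is spread over leukocytes.

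Macrophage- or monocyte-like cells held most UMIs of all 4 ligands in the oxazolone libraries and of Ccl2, Ccl8 and Ccl12 with MC903, where Ccl7 was split almost evenly between them and fibroblast-like cells. In untreated skin fibroblast-like cells held most of Ccl2, Ccl7 and Ccl8. Of the Ccl2 UMIs, macrophage- or monocyte-like cells held 62.4% at oxazolone day 10, 90.4% at oxazolone day 16, 60.6% with MC903 and 9.72% in untreated skin. Fibroblast-like cells held 29.5%, 6.49%, 22.2% and 57.3% of Ccl2 in the same order. For Ccl7, the macrophage- or monocyte-like share was 64.1% at oxazolone day 10, 87.5% at oxazolone day 16, 41.8% with MC903 and 5.07% in untreated skin, against fibroblast-like shares of 31.8%, 9.18%, 40.1% and 77.2%. For Ccl8, the macrophage- or monocyte-like share was 91.7%, 96.0%, 85.4% and 32.9%, against fibroblast-like shares of 5.79%, 2.53%, 13.8% and 65.5%. Ccl12 differed from the others in that macrophage- or monocyte-like cells held 94.1% of it in untreated skin as well, beside 98.2% at oxazolone day 10, 98.1% at oxazolone day 16 and 88.7% with MC903. Shares of UMIs depend on how many cells of a class a library held. Relative to untreated skin, the share of macrophage- or monocyte-like cells among all cells was 14.6 times as high at oxazolone day 10, 11.8 times at oxazolone day 16 and 2.81 times with MC903.

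**Figure D2:**
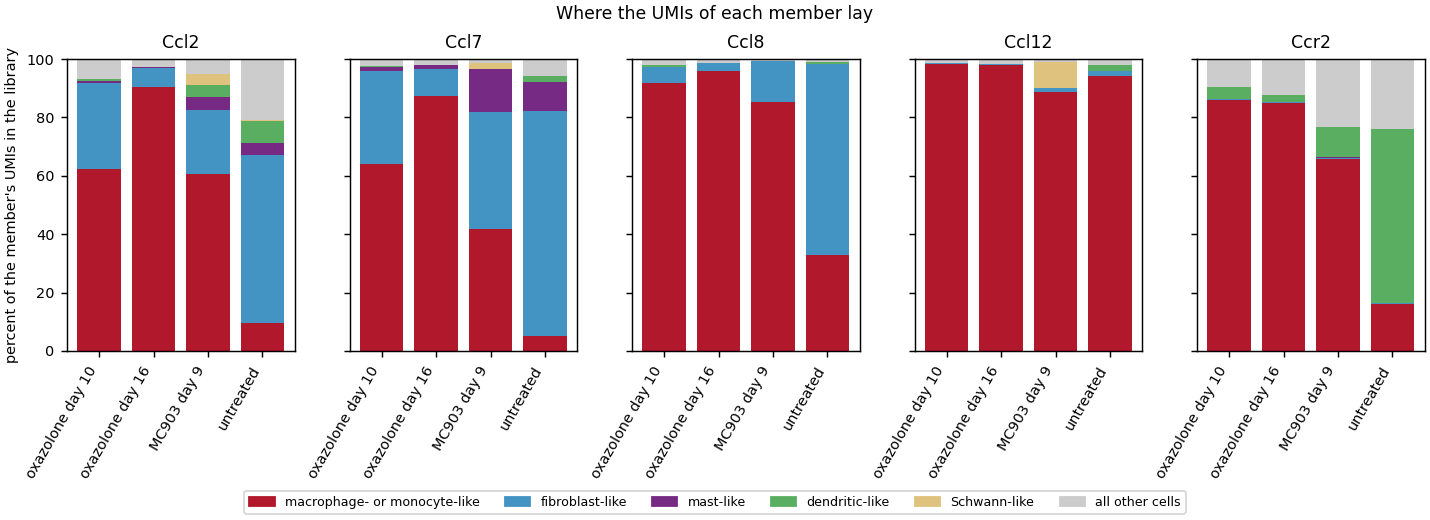
Percent of each member's UMIs that lay in macrophage- or monocyte-like, fibroblast-like, mast-like, dendritic-like, Schwann-like and all other cells, with 1 bar for each library. In untreated skin fibroblast-like cells hold 57.3% of Ccl2, 77.2% of Ccl7 and 65.5% of Ccl8, and dendritic-like cells 59.8% of Ccr2.

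Per unit of RNA, macrophage- or monocyte-like cells were the highest of all classes with at least 50 cells for every ligand in every library. Their Ccl2 level was 106 CPM (102 to 110) at oxazolone day 10, 2584 (2566 to 2602) at oxazolone day 16, 926 (896 to 956) with MC903 and 195 (170 to 224) in untreated skin. Ccl7 had 66.5 CPM at oxazolone day 10, 1891 at oxazolone day 16, 616 with MC903 and 109 in untreated skin. Oxazolone day 10 was thus the lowest library for both genes although its share of macrophage- or monocyte-like cells was the highest. Ccl8 had 1670 CPM at oxazolone day 10, 3063 at oxazolone day 16, 1212 with MC903 and 765 in untreated skin. Ccl12 had 53.7 (50.9 to 56.7) at oxazolone day 10, 504 (496 to 512) at oxazolone day 16, 153 (141 to 165) with MC903 and 44.0 (32.5 to 58.4) in untreated skin, where the first and the last interval overlapped.

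Within this class, log2 ratios over untreated skin at oxazolone day 10 were -0.89 (-1.09 to -0.68) for Ccl2, -0.72 (-0.98 to -0.43) for Ccl7, 1.13 (1.03 to 1.23) for Ccl8 and 0.29 (-0.13 to 0.73) for Ccl12. Only Ccl8 was at least 2-fold higher there, 1 of 4 ligands, where 7.38% of all genes were, and its ratio was 0.87 with all deposited barcodes. Without the 1% of cells with the most UMIs of the gene, no ligand was at least 2-fold higher at oxazolone day 10, and with classes taken from markers alone 3 of 4 were, with ratios of 0.19 for Ccl2 and 1.05 for Ccl7, the other sign for both. At oxazolone day 16 the ratios over untreated skin were 3.72 (3.53 to 3.93), 4.11 (3.86 to 4.39), 2.00 (1.90 to 2.10) and 3.52 (3.11 to 3.96) in the same order of genes, so that 4 of 4 ligands were at least 2-fold higher, against 7.81% of genes and a median gene of -0.35. With MC903 they were 2.24 (2.04 to 2.45), 2.50 (2.23 to 2.77), 0.66 (0.56 to 0.77) and 1.79 (1.37 to 2.25), and 3 of 4 were at least 2-fold higher, against 8.8% of genes. Single cells weighed on these values. With MC903 the 1 cell with the most UMIs of a ligand held 15.9%, 8.60%, 24.9% and 28.2% of them in the same order of genes. In untreated skin it held 9.39%, 28.6%, 9.95% and 20.8%. Oxazolone day 16 over day 10 gave 4.61 for Ccl2, 4.83 for Ccl7, 0.88 for Ccl8 and 3.23 for Ccl12, with 3 of 4 at least 2-fold higher (6.22% of genes). The count was 4 with TMM factors (Ccl8 at 1.19), without cluster B3 (1.39) and without the 1% of cells with the most UMIs (1.11). MC903 over oxazolone day 16 gave -1.48, -1.62, -1.34 and -1.72, all at least 2-fold lower (3.08% of genes). Without cluster B3 the Ccl2 ratio was -0.45, so that 3 of 4 ligands were at least 2-fold lower. The class held 1912 cells at oxazolone day 10, 1477 at oxazolone day 16, 177 with MC903 and 123 in untreated skin, and its fibroblast markers summed to 78.7, 83.6, 64.2 and 230 CPM in the same order.

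**Figure D3:**
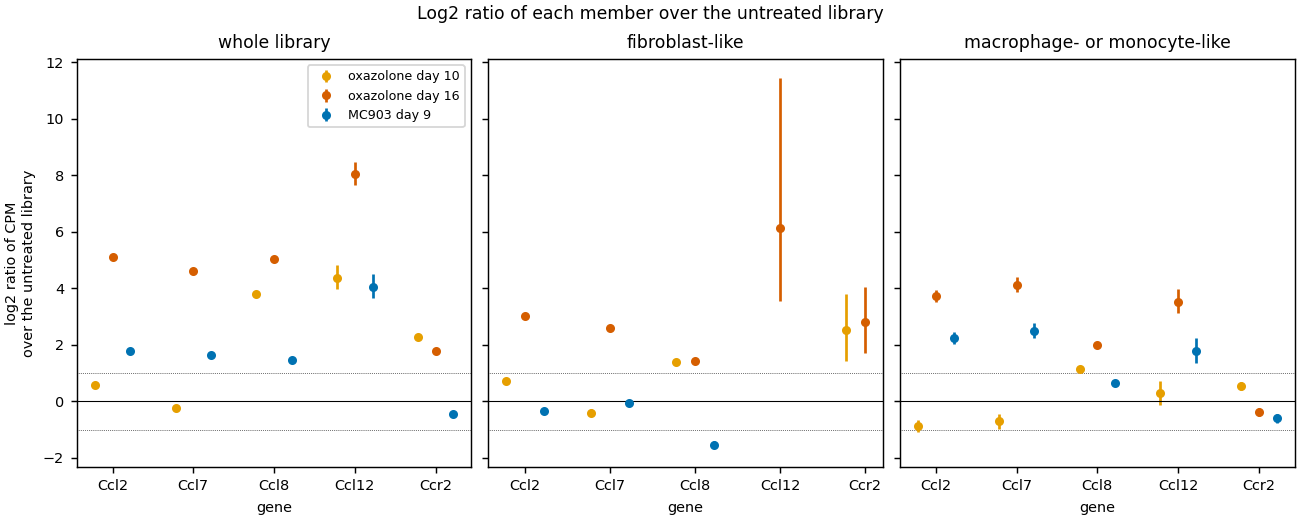
Log2 ratio of each member's CPM in a treated library over the untreated library, over whole libraries, in fibroblast-like cells and in macrophage- or monocyte-like cells, with 95% intervals for counting error. Dotted lines mark 2-fold. In both classes Ccl7 is above 0 at oxazolone day 16 (2.60 and 4.11) and below 0 at oxazolone day 10 (-0.41 and -0.72).

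The ligands were also seen in more of these cells at oxazolone day 16. To compare cells of different depth, each cell was thinned to 1000 UMIs, which kept 1880 macrophage- or monocyte-like cells at oxazolone day 10, 1460 at oxazolone day 16, 176 with MC903 and 121 in untreated skin. After thinning, a Ccl2 UMI was found in 6.76% of them at oxazolone day 10, 41.4% at oxazolone day 16, 19.9% with MC903 and 11.6% in untreated skin (unthinned 27.0%, 73.5%, 43.5% and 38.2%, with medians of 12970, 21000, 22372 and 8251 UMIs per cell). Ccl7 was found in 3.78% at oxazolone day 10, 40.2% at oxazolone day 16, 17.0% with MC903 and 4.96% in untreated skin. Ccl12 was found in 3.24%, 19.5%, 6.82% and 4.96% in the same order. Ccl8 was found in 16.7% at oxazolone day 10, 33.5% at oxazolone day 16, 15.9% with MC903 and 20.7% in untreated skin, so that its level at oxazolone day 10 lay in fewer cells than at oxazolone day 16. Alpha beta T-like cells, which are not known to make these ligands, gave a background after thinning of 0%, 1.48%, 0% and 1.15% of cells for Ccl2 and 0.510%, 2.96%, 0% and 0% for Ccl8, at medians of 6324, 10924, 11923 and 4251 UMIs per cell. Melanocyte-like cells gave 0% for both genes at oxazolone day 10, with MC903 and in untreated skin. The 13 melanocyte-like cells of oxazolone day 16 gave 7.69% (0.195 to 36.0) for Ccl2 and for Ccl7, 0% for Ccl8 and 15.4% for Ccl12, which is 1, 1, 0 and 2 cells.

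The 4 clusters of macrophage- or monocyte-like cells, which were made without the 5 genes, differed in which ligand they carried. Cluster B11, led beside Ccl8 itself by Cd163 and Pf4, genes high in macrophages resident in tissue, carried the most Ccl8 of the 4 clusters in every library. Its Ccl8 level was 11394 CPM at oxazolone day 10, 11190 at oxazolone day 16, 4033 with MC903 and 1475 in untreated skin. Unthinned, 95.1%, 95.4%, 70.0% and 51.9% of its cells had a UMI, against 5.46%, 18.1%, 1.21% and 0% of alpha beta T-like cells. B11 had a median of 17392.5 UMIs per cell over all libraries, against 4251 to 11923 in alpha beta T-like cells by library. These shares are thus not at equal depth. The log2 ratio of Ccl8 in B11 over untreated skin was 2.95 (2.84 to 3.06) at oxazolone day 10 and 2.92 (2.81 to 3.04) at oxazolone day 16, and that of day 16 over day 10 was -0.03. Ccl8 in these cells thus stood within 2-fold between the oxazolone times, while Ccl2 did not. Its Ccl2 level was 179 CPM at oxazolone day 10, 754 at oxazolone day 16, 740 with MC903 and 197 in untreated skin. At oxazolone day 10, 2 of 4 ligands were at least 2-fold higher than in untreated skin in this cluster (Ccl8 and Ccl12), where 11.2% of genes were, and at oxazolone day 16 all 4 were, where 12.9% of genes were. None was at least 2-fold lower at either time, where 7.1% and 10.1% of genes were. The cluster held 144, 130, 30 and 54 cells in the 4 libraries, 7.53%, 8.80%, 16.9% and 43.9% of the class.

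Cluster B3, led by Arg1, Ccl24 and Mmp13, carried the most Ccl2, Ccl7 and Ccl12 at oxazolone day 16 and with MC903. Arg1 encodes arginase and Ccl24 an eotaxin, both induced in macrophages by type 2 cytokines. B3 held 1066 cells at oxazolone day 16, 72.2% of the class, against 118 at oxazolone day 10, 80 with MC903 and 0 in untreated skin. Its Ccl2 level was 333 CPM at oxazolone day 10, 3473 at oxazolone day 16 and 1638 with MC903. Ccl7 had 286, 2524 and 1199 CPM in the same order, and Ccl12 had 64.0, 631 and 296. Between oxazolone day 16 and day 10 the log2 ratios inside B3 were 3.38 for Ccl2, 3.14 for Ccl7, 2.16 for Ccl8 and 3.30 for Ccl12, so that 4 of 4 were at least 2-fold higher (5.61% of genes). MC903 over oxazolone day 16 gave -1.08, -1.07, -1.29 and -1.09 inside B3, so that 4 of 4 were at least 2-fold lower (5.49% of genes) and none higher (7.41%). Without B3 cells, the ratios of the class over untreated skin with MC903 were 0.98 for Ccl2, 0.66 for Ccl7, 0.85 for Ccl8 and -0.0075 for Ccl12, and none of 4 ligands was at least 2-fold higher. At oxazolone day 16 the ratios without B3 were 1.42, 1.97, 2.57 and 2.25, and 4 of 4 ligands were.

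Cluster B9, led by Chil3, Lyz2 and F13a1 and with the monocyte marker Ly6c2, carried more Ccl2 than Ccl7, Ccl8 or Ccl12 in every library. Its Ccl2 level was 97.7 CPM at oxazolone day 10, 321 at oxazolone day 16, 421 with MC903 and 256 in untreated skin. Ccl8 had 8.32, 17.4 and 4.82 CPM in the treated libraries in the same order, and 0 UMIs in the 24 untreated cells. These Ccl8 values lie near those of alpha beta T-like cells, with 7.66 at oxazolone day 10 and 17.1 at oxazolone day 16. Ccl7 in B9 had 6.40 CPM at oxazolone day 10, 61.9 at oxazolone day 16, 17.7 with MC903 and 5.33 (1 UMI) in untreated skin. Ccl12 in B9 had 8.32, 98.1, 27.3 and 5.33 (1 UMI) in the same order. At oxazolone day 16 alpha beta T-like cells had 12.5 CPM of Ccl7 and 2.08 of Ccl12. Cluster B1, led by C1qa, C1qb and C1qc, complement genes of mature macrophages, held 1246 cells at oxazolone day 10, 65.2% of the class, against 148 at oxazolone day 16, 38 with MC903 and 45 in untreated skin. It had 78.5 CPM of Ccl2 at oxazolone day 10, 448 at oxazolone day 16, 63.4 with MC903 and 168 in untreated skin. Ccl8 in B1 stood at 833, 937, 88.2 and 346 in the same order. Ccl2 and Ccl7 were at least 2-fold higher at oxazolone day 16 than at day 10 in each of the 4 clusters, with log2 ratios of 2.51 and 2.98 in B1 (2.94% of genes), 1.72 and 3.27 in B9 (4.02%), and 2.08 and 1.71 in B11 (3.86%, with 5.68% of genes lower), beside those of B3.

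**Figure D4:**
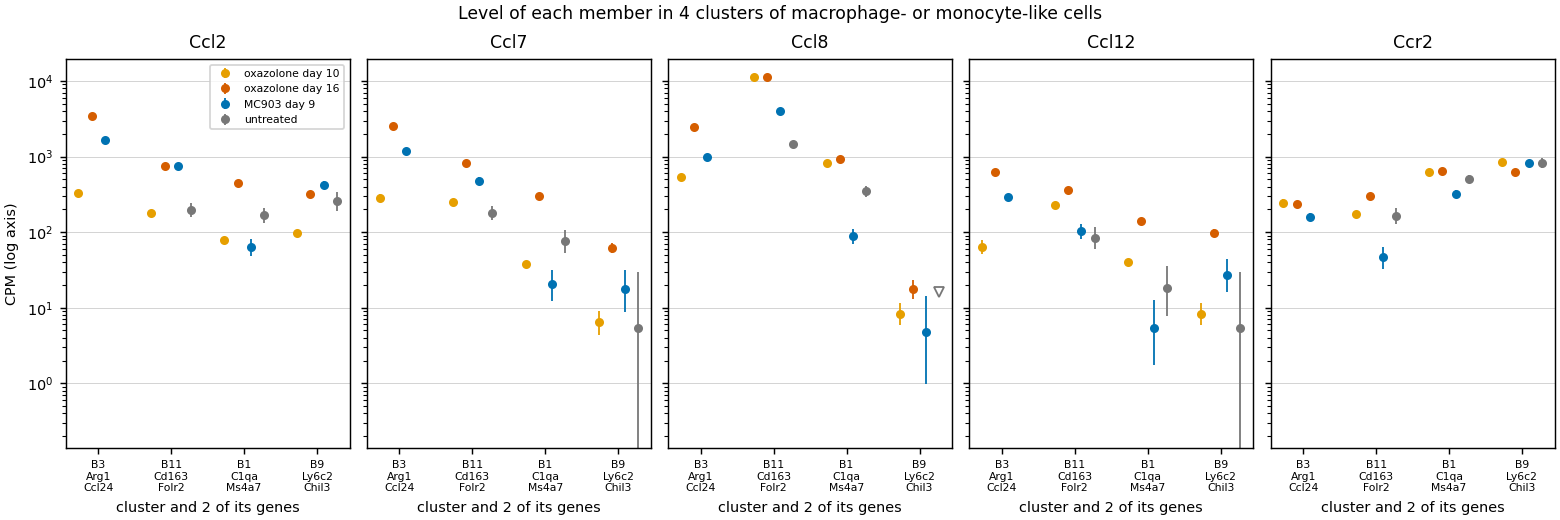
CPM (log axis) of each member in the 4 clusters of macrophage- or monocyte-like cells, with 1 point for each library and 95% Poisson intervals. An open triangle marks a count of 0, drawn at 3 UMIs, and B3 has no untreated cells. Ccl8 is highest in B11 (11394, 11190, 4033 and 1475), and Ccl2 in B3 at oxazolone day 16 (3473).

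Fibroblast-like cells carried Ccl2, Ccl7 and Ccl8 in every library but not Ccl12 beyond background. Their Ccl2 level was 79.4 CPM (75.0 to 83.9) at oxazolone day 10, 393 (382 to 403) at oxazolone day 16, 37.9 (35.9 to 39.9) with MC903 and 48.1 (45.5 to 50.9) in untreated skin. Ccl7 had 52.4 CPM at oxazolone day 10, 420 at oxazolone day 16, 66.0 with MC903 and 69.4 in untreated skin. Ccl8 had 167 at oxazolone day 10, 171 at oxazolone day 16, 21.9 with MC903 and 63.7 in untreated skin. Ccl8 with MC903 was thus the only one of these 9 treated values that lay at least 2-fold below untreated skin. The log2 ratios over untreated skin were 0.72, 3.03 and -0.34 for Ccl2, -0.41, 2.60 and -0.07 for Ccl7, and 1.39, 1.43 and -1.54 for Ccl8, for oxazolone day 10, oxazolone day 16 and MC903. Among the 4 ligands, 1 was at least 2-fold higher at oxazolone day 10 (10.4% of genes), 4 at oxazolone day 16 (9.57%) and none with MC903 (11.5%), where 1 was at least 2-fold lower (8.91%). Day 16 over day 10 gave 2.31 for Ccl2, 3.00 for Ccl7 and 0.03 for Ccl8, and MC903 over oxazolone day 16 gave -3.37, -2.67 and -2.96. Ratios near 0 turned in sign: Ccl2 at oxazolone day 10 was -0.64 with classes taken from markers alone, and with all deposited barcodes Ccl2 and Ccl7 with MC903 were 0.27 and 0.34.

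The fourth ligand counted at oxazolone day 16 was Ccl12, with 39 UMIs in fibroblast-like cells or 2.66 CPM, against 1 UMI in untreated skin. Its level was 0.528% of that in macrophage- or monocyte-like cells of the same library, and the 6 macrophage markers together stood at 0.352% of their level there. For Ccl2, Ccl7 and Ccl8 the fibroblast-like level at oxazolone day 16 was 15.2%, 22.2% and 5.58% of the macrophage- or monocyte-like level, and in untreated skin it was 24.6%, 63.6% and 8.32%, against 0.183% for the macrophage markers. Neutrophil markers in fibroblast-like cells summed to 172 CPM at oxazolone day 10, 1763 at oxazolone day 16, 1768 with MC903 and 45.5 in untreated skin, which is 0.129%, 1.34%, 1.61% and 0.182% of the level in neutrophil-like cells, and their part in the ligand values was not tested. Taking off 5% of RNA with the profile of the whole library left 2 of 4 ligands at least 2-fold higher at oxazolone day 16, with 0.95 for Ccl8. At oxazolone day 10 the count of 1 was 0 with classes taken from markers alone and 2 without the 1% of cells with the most UMIs of the gene.

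At oxazolone day 16 cluster A18 held 5671 of the 5754 Ccl2 UMIs, 5992 of the 6153 Ccl7 UMIs and 2212 of the 2507 Ccl8 UMIs of fibroblast-like cells. It was led by Cxcl5, Saa3 and Tnc, genes of an inflamed and remodelling stroma. A18 held 248 cells at oxazolone day 10, 266 at oxazolone day 16, 40 with MC903 and 15 in untreated skin, or 32.6% and 58.5% of the class in the oxazolone libraries and 2.46% with MC903. It carried 142, 547 and 344 CPM of Ccl2 at oxazolone day 10, at oxazolone day 16 and with MC903, and 90.3, 578 and 416 of Ccl7. Ccl8 went the other way between the oxazolone times in A18, with 214 CPM at day 16 and 286 at day 10, a log2 ratio of day 16 over day 10 of -0.42 (-0.50 to -0.34), beside 1.95 for Ccl2 and 2.68 for Ccl7, which were both at least 2-fold higher (4.9% of genes, with 7.68% lower). Cluster A7, led by Clec3b and Dpt, and cluster A13, led by Postn and Cilp, held most ligand UMIs of fibroblast-like cells in untreated skin. A7 had 27.4 CPM of Ccl2, 70.4 of Ccl7 and 117 of Ccl8 in 55 cells at oxazolone day 16, against 37.3, 71.5 and 94.2 in 1007 untreated cells. The log2 ratios were -0.45, -0.02 and 0.31, so that the 2-fold difference of the class was not seen in A7. A13 had 6.17, 15.7 and 33.1 CPM of Ccl2, Ccl7 and Ccl8 in 97 cells at oxazolone day 10, against 43.9, 76.5 and 34.3 in 646 untreated cells. The log2 ratios were -2.83 (-3.84 to -1.97), -2.28 (-2.88 to -1.74) and -0.05, so that Ccl2 in A13 ran against the 0.72 of the class. The shares of A13 cells with a UMI lay close together when not thinned. They were 9.28% at oxazolone day 10 and 10.2% in untreated skin for Ccl2, and 18.6% and 19.2% for Ccl7. These too are not at equal depth, with class medians of 16708.5 UMIs per cell at oxazolone day 10 and 11665 in untreated skin. Cluster A9, led by Cxcl13 and Igfbp3, made up 59.2% of the class with MC903. It had 32.8 CPM of Ccl2, 69.4 of Ccl7 and 23.7 of Ccl8 there, against 334, 89.1 and 15.6 in 60 untreated cells. The log2 ratios were -3.35, -0.36 and 0.60. The 150 untreated Ccl2 UMIs lay in 11.7% of the 60 cells, while 13.1% of the A9 cells of MC903 had a Ccl2 UMI, unthinned. Fibroblast-like cells had medians of 19618 UMIs per cell with MC903 and 11665 in untreated skin, so that these A9 shares are not at equal depth. Cluster A19, led by Angptl7 and Thbs4, and cluster A24, led by Dcc and Hhip, had less of the 3 ligands. Ccl2 stood at 0.686 CPM in the 353 A19 cells of MC903 and 1.48 in the 202 A24 cells of oxazolone day 10. The 32 A19 cells of oxazolone day 16 had 12.1 CPM of Ccl2, 22.8 of Ccl7 and 9.38 of Ccl8, and the 65 A24 cells 9.41, 10.3 and 15.4, where alpha beta T-like cells had 15.8, 12.5 and 17.1.

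Mast-like cells were few but carried Ccl7 and Ccl2 in all libraries, without Ccl8 or Ccl12. Mast cells are granulated leukocytes that live in the dermis. There were 10 such cells at oxazolone day 10, 20 at oxazolone day 16, 33 with MC903 and 22 in untreated skin, too few for the ratios used here. Their Ccl7 level was 394 CPM (271 to 553) at oxazolone day 10, 4083 (3825 to 4355) at oxazolone day 16, 2722 (2546 to 2907) with MC903 and 2657 (2324 to 3026) in untreated skin. Their Ccl2 level was 275 (174 to 412), 1395 (1246 to 1557), 839 (743 to 945) and 1096 (885 to 1341) in the same order. Ccl7 in these cells thus stood above its level in macrophage- or monocyte-like cells in each of the 4 libraries, and they held 1.29% of all Ccl7 UMIs at oxazolone day 10, 1.38% at oxazolone day 16, 14.7% with MC903 and 9.72% in untreated skin. Of Ccl8 they had 0 UMIs at oxazolone day 10, 1 at oxazolone day 16, 0 with MC903 and 0 in untreated skin, and of Ccl12 0, 0, 1 and 0.

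Mural-like cells, which surround vessels, carried Ccl2, though at oxazolone day 16 and with MC903 most of it lay in 1 cell. In the other classes ligand UMIs were low or lay for the most part in single cells. Mural-like cells had 18.8 CPM of Ccl2 at oxazolone day 10, 306 at oxazolone day 16, 41.1 with MC903 and 42.4 in untreated skin. At oxazolone day 16, 210 of the 335 UMIs lay in 1 of 50 cells, without which the level was 117. With MC903, 1 cell held 73 of 122 UMIs, and the level without it was 16.6 CPM. At oxazolone day 10 it was 25 of 61 (11.2 without it), and in untreated skin 16 of 90 (35.0). The Ccl2 interval of mural-like cells in untreated skin (34.1 to 52.1 CPM) overlapped that of fibroblast-like cells. Mural-like cells also had 122 CPM of Ccl7 at oxazolone day 16, 134 UMIs of which 50 lay in 1 cell, and 78.7 without it. Keratinocyte-like cells held 15.1% of Ccl2 UMIs in untreated skin, at 12.9 CPM. With MC903, 218 of the 219 Ccl2 UMIs of Schwann-like cells lay in 1 cell, as did 105 of 110 Ccl7 UMIs and all 61 Ccl12 UMIs, and 177 of 262 Ccl2 UMIs of dendritic-like cells lay in 1 cell. At oxazolone day 10, 199 of 217 Ccl8 UMIs of dendritic-like cells and 347 of 464 of neutrophil-like cells lay in 1 cell each. At oxazolone day 16, alpha beta T-like cells had 15.8, 12.5, 17.1 and 2.08 CPM of Ccl2, Ccl7, Ccl8 and Ccl12, and keratinocyte-like cells had 13 CPM of Ccl2 and 7.36 CPM of Ccl7. Neutrophil-like cells of this library had 45.9 CPM of Ccl2 and 21.3 CPM of Ccl7.

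Within macrophage- or monocyte-like cells of the treated libraries, each pair of ligands was found in the same cells more often than the product of their shares. After thinning, Ccl2 and Ccl7 were both found in 31.0% or 452 of 1460 cells at oxazolone day 16, where the product of their shares was 16.7%. They were both found in 11.9% of cells with MC903 (product 3.39%) and in 0.904% at oxazolone day 10 (product 0.255%). Ccl7 and Ccl12 were both found in 15.1% of cells at oxazolone day 16, where the product was 7.82%. In untreated skin a pair was found in 1 to 5 of 121 cells, from 0.807 times the product for Ccl8 with Ccl12 (1 cell) to 3.36 times for Ccl7 with Ccl12 (1 cell). Ccl8 and Ccr2 went the other way, with 0.381 times the product at oxazolone day 10 (48 of 1880 cells), 0.724 times at oxazolone day 16 (80 of 1460), 0.340 times with MC903 (2 of 176) and 0 of 121 cells in untreated skin. Ccl2 and Ccr2 stood closer to the product, at 0.942, 0.899, 1.36 and 1.39 times in the same order. At least 3 of the 4 ligands were found in 15.4% (3 ligands) and 7.47% (4 ligands) of cells at oxazolone day 16, against 1.12% and 0.106% at oxazolone day 10, 6.25% and 2.27% with MC903, and 0% and 0% in untreated skin. Clusters of a class differ in all 5 genes, so that such shares mix differences between and within clusters. A few cells held a large part of the UMIs: the 1% of all cells with the most Ccl2 held 52.2% of it at oxazolone day 10, 44.0% at oxazolone day 16, 75.3% with MC903 and 71.0% in untreated skin.

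**Figure D5:**
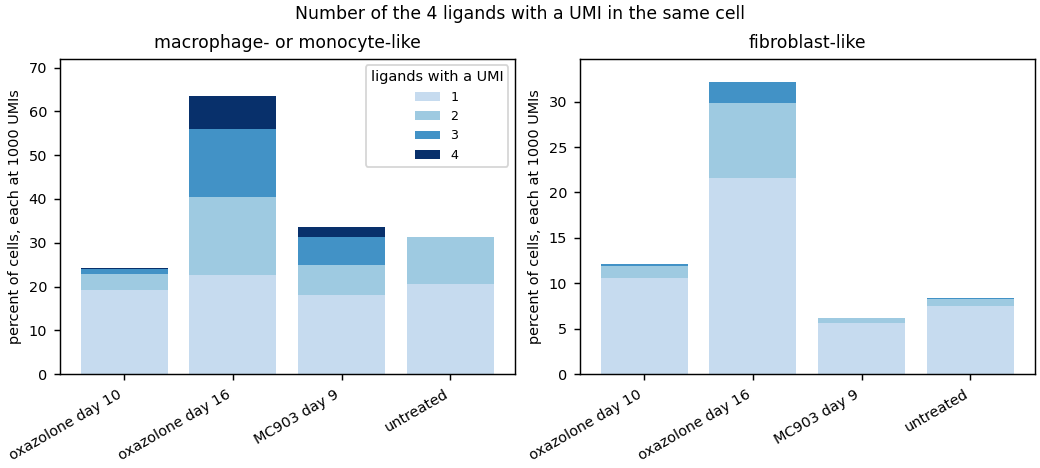
Percent of macrophage- or monocyte-like cells and of fibroblast-like cells, each thinned to 1000 UMIs, in which 1, 2, 3 or all 4 ligands had a UMI, with 1 bar for each library and a scale of its own in each panel. At oxazolone day 16, 22.6%, 17.9%, 15.4% and 7.47% of macrophage- or monocyte-like cells had 1, 2, 3 and 4 ligands.

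Ccr2, the receptor, was carried by macrophage- or monocyte-like, dendritic-like, T-like, NK-like, ILC2-like and basophil-like cells. In the treated libraries, fibroblast- and mural-like cells stood below neutrophil-like cells, which are taken as background. So did keratinocyte-like cells except at oxazolone day 16, with 8.41 CPM (5.39 to 12.5, 24 UMIs) against 2.48 (1.97 to 3.08). In untreated skin fibroblast-, keratinocyte- and mural-like cells had 0.345, 0.817 and 0.471 CPM. In macrophage- or monocyte-like cells Ccr2 had 607 CPM (597 to 617) at oxazolone day 10, 318 (312 to 325) at oxazolone day 16, 274 (258 to 291) with MC903 and 417 (379 to 457) in untreated skin. Over untreated skin its log2 ratios were 0.54 (0.41 to 0.68) at oxazolone day 10, -0.39 (-0.52 to -0.25) at oxazolone day 16 and -0.60 (-0.76 to -0.44) with MC903, all within 2-fold, and without cluster B3 the ratio at oxazolone day 16 was 0.29. At 1000 UMIs per cell it was found in 40.1% (37.9 to 42.4) of these cells at oxazolone day 10, 22.6% (20.5 to 24.8) at oxazolone day 16, 21.0% (15.3 to 27.8) with MC903 and 25.6% (18.1 to 34.4) in untreated skin (unthinned 80.9%, 66.5%, 55.9% and 62.6%). As background, it was found in 0.402%, 0%, 0% and 0.0469% of thinned fibroblast-like cells in the same order, whose medians were 16708.5, 31778, 19618 and 11665 UMIs per cell. Among the clusters, Ccr2 stood high in B9, which had almost no Ccl8, and lower in B11, which had the most. B9 had 841 CPM at oxazolone day 10, 632 at oxazolone day 16, 813 with MC903 and 831 in untreated skin, with a UMI in 94.1%, 98.5%, 96.6% and 100% of cells, unthinned. B11 had 175, 298, 46.4 and 164. B1 had 632, 640, 320 and 505, between B9 and B11 except at oxazolone day 16, where it stood level with B9. In B3 it was 247 at oxazolone day 10, 237 at oxazolone day 16 and 160 with MC903, so that B3 and not B11 was the lowest at oxazolone day 16. Within B1, B3 and B9 the log2 ratio of oxazolone day 16 over day 10 was 0.02, -0.06 and -0.41, and in B11 it was 0.77 (0.60 to 0.94), against -0.93 for the class.

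Most Ccr2 UMIs lay in macrophage- or monocyte-like cells in the treated libraries and in dendritic-like cells in untreated skin. Macrophage- or monocyte-like cells held 86.0% of Ccr2 UMIs at oxazolone day 10, 85.0% at oxazolone day 16, 65.7% with MC903 and 16% in untreated skin. Dendritic-like cells held 4.38%, 2.47%, 10.3% and 59.8% in the same order. Their level was 234 CPM at oxazolone day 10, 190 at oxazolone day 16, 169 with MC903 and 287 in untreated skin, and at 1000 UMIs Ccr2 was found in 16.3%, 16.2%, 28.6% and 19.1% of them. Cluster B8, led by Mgl2 and Cd209a, genes of dermal dendritic cells, had 284, 279, 180 and 438 CPM and alone held 54.3% of the Ccr2 UMIs of untreated skin. Cluster B15, led by Cd209e and Cd209d and with 197 of its 203 cells from untreated skin, had 67.4 there.

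At oxazolone day 16, gamma delta T-like cells had the most Ccr2 of the lymphocyte classes with at least 50 cells. Their level there was 384 CPM (355 to 415), above the 318 of macrophage- or monocyte-like cells. The other libraries gave 240 at oxazolone day 10, 59.6 with MC903 and 55.6 in untreated skin. These cells were of different kinds. Cluster B12, led by Cd163l1, Il23r and Il17a, genes of gamma delta T cells that make IL-17, had 386 CPM at oxazolone day 16, 166 with MC903 and 550 in untreated skin, and held 160 of the 161 gamma delta T-like cells of oxazolone day 16. Cluster B7, led by Xcl1 and Trdv4, genes of the T cells that live in mouse epidermis, held 622 of the 684 in untreated skin and had 3.39 CPM there. Alpha beta T-like cells had 303 CPM at oxazolone day 10, 226 at oxazolone day 16, 93.0 with MC903 and 224 in untreated skin. Among their clusters the highest level lay in B13, led by Icos, Gzmb and Foxp3, the regulatory T cell factor, with 747 CPM at oxazolone day 10, 627 at oxazolone day 16, 209 with MC903 and 459 in untreated skin. NK-like cells had 464 at oxazolone day 10 (82 cells), with 295, 59.7 and 316 in libraries of 11, 15 and 18 such cells. ILC2-like cells had 147 CPM (113 to 187) in untreated skin, with 65 UMIs in 69 cells. Basophil-like cells had 123 at oxazolone day 10, 28.8 at oxazolone day 16 and 67.4 with MC903. As background, neutrophil-like cells had 6.14 CPM at oxazolone day 10, 2.48 at oxazolone day 16 and 4.88 with MC903, and fibroblast-like cells had 2.00, 2.39, 0.218 and 0.345 in the 4 libraries. Of the 35 fibroblast-like UMIs at oxazolone day 16, 15 lay in 1 cell.

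Other CC receptors lay in other cells. Ccr1, a receptor of CCL7 that mouse neutrophils carry, had 124 CPM over all cells at oxazolone day 10, 460 at oxazolone day 16, 68.9 with MC903 and 2.43 in untreated skin. Neutrophil-like cells held 52.1%, 70.0% and 44.1% of it in the treated libraries in that order. In macrophage- or monocyte-like cells it had 235 CPM at oxazolone day 10, 398 at oxazolone day 16, 374 with MC903 and 86.3 in untreated skin, log2 ratios of 1.44, 2.21 and 2.12. Ccr8, the receptor of mouse CCL8, was rare, with 87 UMIs at oxazolone day 10, 69 at oxazolone day 16, 160 with MC903 and 177 in untreated skin. Alpha beta T-like cells held 87.4%, 85.5%, 48.1% and 25.4% of these, and ILC2-like cells 50.8% in untreated skin. Of the scavenging receptors, which bind chemokines without signalling like the others, Ackr1 in fibroblast-like cells had 18.5 CPM at oxazolone day 10, 27.7 at oxazolone day 16, 59.9 with MC903 and 97.3 in untreated skin. In fibroblast-like cells 2 of the 4 scavenging receptors were at least 2-fold lower at oxazolone day 10, 3 at oxazolone day 16 and 0 with MC903, and none, none and 1 (Ackr2) were at least 2-fold higher. Of all genes measured in this class, 5.93% were lower at oxazolone day 10, 11.9% at oxazolone day 16 and 8.91% with MC903. In the same order, 10.4%, 9.57% and 11.5% were higher.

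The other genes of the pathway in macrophage- or monocyte-like cells are given by list. Of all genes measured in this class, 7.38% were at least 2-fold higher than in untreated skin at oxazolone day 10, 7.81% at oxazolone day 16 and 8.8% with MC903, and 8.4%, 22.4% and 8.88% were at least 2-fold lower. Genes for known inducers of Ccl2 stood higher at oxazolone day 16 and with MC903 but not at oxazolone day 10. Of 5 measured (of 10 listed), 0 were at least 2-fold higher and 1 lower at oxazolone day 10 (median log2 ratio over untreated skin -0.44), 4 and 0 at oxazolone day 16 (2.72), and 5 and 0 with MC903 (3.41). Il1b, an inflammatory cytokine, had 949 CPM at oxazolone day 16 and 1528 with MC903, against 199 in untreated skin, and Osm, which encodes oncostatin M, had 278 and 501 against 36.7. Tnf at oxazolone day 10 had 58.7 CPM, against 149 in untreated skin. Neutrophil markers in this class summed to 479 CPM at oxazolone day 10, 1721 at oxazolone day 16, 764 with MC903 and 85.3 in untreated skin, with 2 of 6 at 0 in the last, and their part in these values was not tested. Of 12 NF-kB targets, 2 were higher and 2 lower at oxazolone day 10 (median -0.62) and 8 and 1 at oxazolone day 16 (1.57), and of 11 measured 8 and 0 with MC903 (1.97). Of 9 interferon-stimulated genes, 1 was higher and 1 lower at oxazolone day 10, 2 and 2 at oxazolone day 16, and 2 and 2 with MC903 (medians 0.40, -0.20 and 0.51), which at oxazolone day 16 is close to the 22.4% of all genes that were lower. The median of all genes stood at 0.01, -0.35 and -0.03.

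Of 8 genes of alternative activation, the state that IL-4 and IL-13 give to macrophages, 2 were higher and 4 lower at oxazolone day 10 (7.38% and 8.4% of all genes were), 5 and 3 at oxazolone day 16 (7.81% and 22.4%), and 4 and 2 with MC903 (8.8% and 8.88%), with medians of -0.83, 2.42 and 1.46. Arg1 had 355 CPM at oxazolone day 10, 7046 at oxazolone day 16, 3097 with MC903 and 4.59 (5 UMIs) in untreated skin. Cd209d had 5.88 at oxazolone day 10 and 6.97 at oxazolone day 16, against 150 in untreated skin. Of the other CC ligands measured, 1 of 8 was higher and 3 lower at oxazolone day 10, 5 of 9 and 1 at oxazolone day 16, and 5 of 7 and 0 with MC903 (medians -0.23, 1.18 and 1.58). Ccl24 had 5990 CPM at oxazolone day 16 and 2493 with MC903, against 226 in untreated skin. Ccl3 and Ccl4, inflammatory chemokines of macrophages, had 45.8 and 171 at oxazolone day 10, against 148 and 343 in untreated skin. Of 10 genes of adhesion and egress, 3 were lower at oxazolone day 10 (8.4% of all genes), 5 at oxazolone day 16 (22.4%) and 5 with MC903 (8.88%), and none, 1 and none were higher (medians -0.38, -1.20 and -0.95). Cx3cr1, the fractalkine receptor, had 14.9 CPM at oxazolone day 10, 12.2 at oxazolone day 16, 16.6 with MC903 and 78.9 in untreated skin. Of 8 signalling partners of CCR2, none was at least 2-fold lower at oxazolone day 10, 1 at oxazolone day 16 and 1 with MC903, Ptk2b both times, and none was higher (medians 0.18, -0.20 and 0.02). Of 16 genes of stress from dissociation, 11 were lower and 0 higher at oxazolone day 10 (8.4% and 7.38% of all genes), 9 and 2 at oxazolone day 16 (22.4% and 7.81%), and 5 and 2 with MC903 (8.88% and 8.8%), with medians of -1.26, -1.07 and -0.22, and their part in the ligand values was not tested.

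Of all genes measured in fibroblast-like cells, 10.4% were at least 2-fold higher than in untreated skin at oxazolone day 10, 9.57% at oxazolone day 16 and 11.5% with MC903, 5.93%, 11.9% and 8.91% were lower, and the median gene stood at 0.04, -0.16 and 0.07. Of 12 NF-kB targets in these cells, 6 were at least 2-fold higher and 2 lower at oxazolone day 10, 8 and 0 at oxazolone day 16, and 5 and 0 with MC903, with medians of 1.04, 2.76 and 0.93. Cxcl5, a neutrophil attractant, had 1225 CPM at oxazolone day 10, 1397 at oxazolone day 16 and 42.9 with MC903, against 0.307 in untreated skin, and Saa3, an acute phase protein, had 1018, 2240 and 141 against 0.268. Of 9 interferon-stimulated genes, 1 was higher and 1 lower at oxazolone day 10, 7 and 0 at oxazolone day 16, and 1 and 2 with MC903, with medians of 0.48, 1.72 and -0.31, so that the count of higher genes lay near the share of all genes except at oxazolone day 16. Cxcl10, an interferon-induced attractant of T cells, had 41.1 CPM at oxazolone day 16 and 12.6 with MC903, against 7.82 in untreated skin. Stress genes in this class were lower for 9 of 16 at oxazolone day 10, 3 at oxazolone day 16 and 0 with MC903, with medians of -1.11, -0.44 and 0.21.

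Across 50 sums of a class in a library, which share libraries, depth and cell numbers, the levels of Ccl2 and Ccl7 had a Pearson correlation of 0.89 on the log2(CPM + 1) scale. Ccl2 had 0.73 with Ccl8 and 0.76 with Ccl12, and 0.01 with Ccr2. Of 16867 genes compared, Tmem26, which encodes a membrane protein, was the most similar to Ccl2 (0.84) and to Ccl7 (0.83). Next to Ccl2 stood Ifi207 (0.80) and Mmp19 (0.78), and next to Ccl7 Gm31522 and Mmp13 (both 0.74). Ccl8 was most similar to Pf4 and C1qb (both 0.84), followed by C1qc, Gm31522 and C1qa (all 0.81). Ccl12 was most similar to Ccl24 (0.91), Mmp13 (0.88), Msr1 (0.87), Pf4 and Arg1 (both 0.86). Ccr2 was most similar to Cd48, a surface gene of leukocytes, and AI662270 (both 0.96), Myo1g (0.95) and Dok2 (0.94).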

How the data were processed

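RNA of single cells from skin was measured in 4 libraries, each 1 sample. The authors deposited UMI counts per gene and barcode, whole numbers not normalized, with cells already called. Per the submitters' processing notes, Cell Ranger 8.0 and mm10 were used, while the file headers name versions 7.2.0 and 8.0.0. Library totals were 73054242 to 119717836 UMIs.

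Barcodes under 300 genes or above 15% mitochondrial UMIs were dropped, and doublets were removed by score at 0.8% per 1000 barcodes, which took 607, 538, 140 and 481 barcodes (oxazolone day 10, oxazolone day 16, MC903, untreated). Cells were clustered without the 5 members on 2000 variable genes, 30 principal components and 15 neighbours (scikit-learn 1.9.0, python-igraph 0.11.9) with leidenalg 0.10.2 at resolution 1. Immune clusters were clustered again, and clusters were named "-like" from marker lists; 0.728% to 3.21% of cells stayed unnamed. UMIs were summed per class and library and scaled to CPM. Ratios were taken where both libraries held at least 50 cells, a count of 0 was set to 3 UMIs, and a gene with at least 30 UMIs in the pair was called at 2-fold, never in favour of a library at 0. With 1 library per group there was no test between groups. Intervals are exact Poisson, Clopper-Pearson or conditional binomial 95% intervals (scipy 1.17.1). Ratio steps were tested on simulated data. TMM factors came from edgeR 4.0.16.

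The members, lists and rules were chosen with earlier results of these data known. Beside the members, named genes are at most the 4 genes of a list with the largest ratios, the 5 most similar genes (at least 200 UMIs) and markers.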

Additional observations from a re-analysis of the deposited data

Results flagged for a closer look

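Pairs of ratios that pointed in opposite directions were singled out, and none of these differences was tested, since each condition had 1 library. In macrophage- or monocyte-like cells the log2 ratio of Ccl2 over untreated skin was -0.89 at oxazolone day 10 and 3.72 at oxazolone day 16. Ccl7 had -0.72 at oxazolone day 10 and 4.11 at oxazolone day 16 in the same class, -0.41 and 2.60 in fibroblast-like cells, and -0.22 and 4.60 over whole libraries, where the first was 0.10 without the 25% of cells with the most stress UMIs. With classes from markers alone the day 10 ratios of Ccl2 and Ccl7 in macrophage- or monocyte-like cells were 0.19 and 1.05, so that these pairs no longer pointed apart. The day 10 and day 16 ratios share the untreated library, and day 16 was counted with another Cell Ranger version than both others. With MC903, Ccl2 had -0.34 in fibroblast-like cells (0.27 with all deposited barcodes) and 2.24 in macrophage- or monocyte-like cells, and Ccl8 had -1.54 in fibroblast-like cells and 0.66 in macrophage- or monocyte-like cells. Ccr2 at oxazolone day 16 had 2.79 in fibroblast-like cells, at a background level of 35 UMIs of which 15 lay in 1 cell, and -0.39 in macrophage- or monocyte-like cells.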

How the results depend on the processing

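No paired analysis was possible because each condition had 1 library, and for the same reason no replicate could be left out. Of 75 ratios, 64 kept their sign under every alternative tried. Beside those named in the results and below, Ccl7 over whole libraries at oxazolone day 10 turned from -0.22 to 0.10 without the 25% of cells with the most stress UMIs, Ccr2 at oxazolone day 16 in macrophage- or monocyte-like cells from -0.39 to 0.08 with TMM factors, and the oxazolone day 16 over day 10 ratios in fibroblast-like cells from 0.03 to -0.28 for Ccl8 after taking off 5% free RNA and from 0.26 to as low as -1.09 for Ccr2. The number of 4 ligands at least 2-fold higher than in untreated skin was the most sensitive result at oxazolone day 10. It was 1 in macrophage- or monocyte-like cells there, 0 with all deposited barcodes, 0 without the 1% of cells with the most UMIs, and 3 with classes from markers alone. In fibroblast-like cells it was 1, and 0 with classes from markers alone, 2 without the 1% of cells with the most UMIs, and 2 without the 25% of cells with the most stress UMIs. At oxazolone day 16 it was 4 in fibroblast-like cells and 2 after taking off 5% free RNA. With MC903 it was 0 in fibroblast-like cells and 1 with all deposited barcodes, and it was 3 in macrophage- or monocyte-like cells and 0 without cluster B3, an alternative chosen after seeing the data, as was the one without neutrophil-like cells. Without B3 the MC903 ratio of Ccl12 was -0.0075 in place of 1.79. With classes from markers alone the oxazolone day 10 ratio of Ccr2 in fibroblast-like cells was -0.42 in place of 2.53. Ccl7 at oxazolone day 10 ranged from -1.02 to 1.05 and Ccl2 from -1.21 to 0.19 in macrophage- or monocyte-like cells. The macrophage- or monocyte-like share of Ccl2 ranged from 71.3% to 93.0% at oxazolone day 16 and from 6.81% to 12.8% in untreated skin. Fibroblast-like shares moved more with classes from markers alone, to 11.5% in place of 29.5% of Ccl2 at oxazolone day 10, to 1.78% in place of 6.49% of Ccl2 and 1.71% in place of 9.18% of Ccl7 at oxazolone day 16, and to 13.3% in place of 31.8% of Ccl7 at oxazolone day 10. The causes of these shifts were not tested. The 177 MC903 and 123 untreated macrophage- or monocyte-like cells, and the 10 to 33 mast-like cells, limit the precision of their levels.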
